A study of Homo sapiens with 6 samples.

Results

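The 42 genes described here act in mitosis and its spindle checkpoint. They were taken by symbol from a table of 19960 genes, all 42 were found, and all 42 had a high enough level to be tested. RNA was sequenced from MKN28 cells, a human line of gastric adenocarcinoma, which registers of misidentified lines give as a derivative of MKN74, another gastric adenocarcinoma line. Stable cells carrying a plasmid for a short hairpin RNA against LTBP1 (shLTBP1, 3 libraries) were compared with stable cells carrying a scrambled hairpin (shSCR, 3 libraries), both grown in RPMI medium with fetal bovine serum. LTBP1 is a matrix protein that binds latent TGF-beta. The labels do not say how many hairpins or clones were used, nor whether the replicates were separate cultures. The p-values here therefore rest on the spread among the 6 libraries, which may be technical.

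Mitosis begins when cyclin B and the kinase CDK1 become active, which the CDC25 phosphatases promote. Chromosomes then attach to spindle microtubules through kinetochores, large protein assemblies built on centromeric chromatin. Until every kinetochore is attached, the spindle checkpoint (BUB1, BUB1B, BUB3, TTK and MAD2L1 among the genes here) holds back CDC20, the activator of the anaphase-promoting complex, a ubiquitin ligase whose action releases the chromatids and ends mitosis. Most of these genes are transcribed late in the cell cycle, under the MuvB complex with MYBL2 and FOXM1, so in dividing cultures their RNA is a common readout of proliferation. In bulk RNA, fewer cells in mitosis and less of an RNA per cell cannot be told apart.

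The late cell cycle genes share promoter elements that are known to take part in this control: the cell cycle genes homology region (CHR), searched here as TTTGAA or TTCGAA, and the CCAAT box, searched as CCAAT. Both strands were searched in the 250 bases before the start site, in promoters of the RefSeq table for build GRCh38.p14, which had an entry for 33 of the 42 genes. A CHR match was present in 17 of the 33 (51.5%), against 11.9% of 15165 promoters of genes in the deposited table. A CCAAT match was present in 25 (75.8%), against 34.8%, and both were present in 15 (45.5%), against 4.7%. Printed are the cyclin, CDK1 and CDC25 genes and the checkpoint genes with a CHR match. They show a CHR match in a gene that was called higher in shLTBP1 (CDK1), in a gene called lower (BUB1B) and in a gene not past the threshold (CCNB2). Capitals mark the matches, each sequence runs 5′ to 3′ on the plus strand and ends at the base before the start site.
CCNB2, chr15:59104896-59105145: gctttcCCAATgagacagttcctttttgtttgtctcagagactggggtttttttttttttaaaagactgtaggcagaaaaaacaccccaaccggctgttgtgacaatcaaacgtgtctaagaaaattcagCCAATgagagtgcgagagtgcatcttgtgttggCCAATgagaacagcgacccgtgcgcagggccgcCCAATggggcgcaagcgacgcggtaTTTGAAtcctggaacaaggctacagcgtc
CDK1, chr10:60778081-60778330: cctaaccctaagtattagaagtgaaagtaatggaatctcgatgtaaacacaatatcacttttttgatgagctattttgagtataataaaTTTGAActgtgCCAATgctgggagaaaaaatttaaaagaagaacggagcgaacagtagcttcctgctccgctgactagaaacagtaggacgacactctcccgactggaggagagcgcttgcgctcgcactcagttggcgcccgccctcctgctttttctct
BUB1B, chr15:40160819-40161068: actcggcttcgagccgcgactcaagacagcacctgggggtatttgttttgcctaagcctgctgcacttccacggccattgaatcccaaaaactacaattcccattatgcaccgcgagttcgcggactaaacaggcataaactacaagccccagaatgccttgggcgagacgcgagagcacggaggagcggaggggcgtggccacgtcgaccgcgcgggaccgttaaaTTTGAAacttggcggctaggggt
In CCNB2 the CHR match begins 29 bases before the start site and the CCAAT boxes begin 54, 87, 120 and 244 bases before it. In CDK1 the matches begin 161 bases (CHR) and 150 bases (CCAAT) before it, and in BUB1B the CHR match begins 23 bases before it. A match is a description of letters and no evidence of binding.

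The deposited values are normalized counts that sum to between 30479879 and 30941103 per library, so the sequenced depth is not known from them. LTBP1 stood at 977, 964 and 1011 in shSCR and at 59.0, 66.8 and 49.0 in shLTBP1 (exact two-sided permutation test p = 0.1, the smallest that 3 against 3 libraries allow), a log2 fold change of -4.07. The 6 epithelial markers summed to 324236 to 344681 in shSCR and 287672 to 311549 in shLTBP1. KRT8, which did not pass, and KRT18 made up most of this sum. The markers moved in both directions: EPCAM (-54.0%, on chromosome 2), CDH1 (-21.2%) and KRT18 (-15.8%) were called lower. KRT19 (16.7%) and CLDN4 (20.3%) were called higher. The 10 markers of mesenchymal, blood and endothelial cells summed to 1145 to 1505 and 728 to 955. Most of that was COL1A1, 4 of the 10 reached the expression filter, and PTPRC, the pan-leukocyte marker, was at or below 0.738 in all 6 libraries. LUM, a fibroblast proteoglycan, stood at 0 in every shSCR library and at 36.6 to 52.0 in shLTBP1. HBB stood at 132 in shSCR replicate 3 and at 0 in the other 5 libraries. The part of these markers in the results was not tested.

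The mitotic genes moved in both directions and by small amounts. With shLTBP1 set against shSCR, 13 of the 42 rose, 13 fell and 16 did not pass (limma adjusted p of 0.05 over all 12789 tested genes). Called genes were therefore 61.9% of the members, against 53.1% of all tested genes (26.3% higher and 26.8% lower), or 57.4% of the 8108 tested genes whose mean was at or above the lowest mean among the members, 550.2. The groups of 3 libraries did not overlap for 28 members, 14 higher and 14 lower (background 60.8% of tested genes, 30.2% higher and 30.6% lower). All fold changes given are differences of log2(value + 1), and their median was -0.03 over the members and 0.00 over all tested genes. No member reached a 2-fold change, which 9.58% of all tested genes and 3.93% of those at or above the lowest member mean did. The largest differences were -0.91 for BUB1 and 0.71 for SPC24. Members called in both directions were present in 7 of the 10 functional groups. Whether any pair of members differed in its change was not tested.

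Spread between libraries was narrow. The coefficient of variation of a member within a group had a median of 3.86% in shSCR and 3.84% in shLTBP1, with a highest value of 14.6% and 16.2%. Of the 26 called members, 12 kept their call under all alternatives run for them: CDK1, CDC25B, NEK2, SPC24, UBE2C, PRC1 and ECT2 on the higher side, and CDC25C, PLK1, AURKA, BUB1 and BUB1B on the lower side. The count of 13 higher members was 8 without shSCR replicate 1 and also 8 without shSCR replicate 3, while the count of lower members ranged from 10 to 12 with any 1 library left out.

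A change of scaling, of the variance trend or of the filter on low values ended the call of 7 members. With upper quartile scaling or quantile normalization CDCA8 (adjusted p = 0.0963 and 0.0605), BIRC5 (0.0874 and 0.0585) and DLGAP5 (0.144 and 0.109) did not pass. Without the mean-dependent trend in variance this held for TTK (0.0673), BIRC5 (0.0702), DLGAP5 (0.0801), NUSAP1 (0.0767), FOXM1 (0.0879) and MYBL2 (0.0718), and without a filter on low values for FOXM1 (0.0518).

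**Figure D1:**
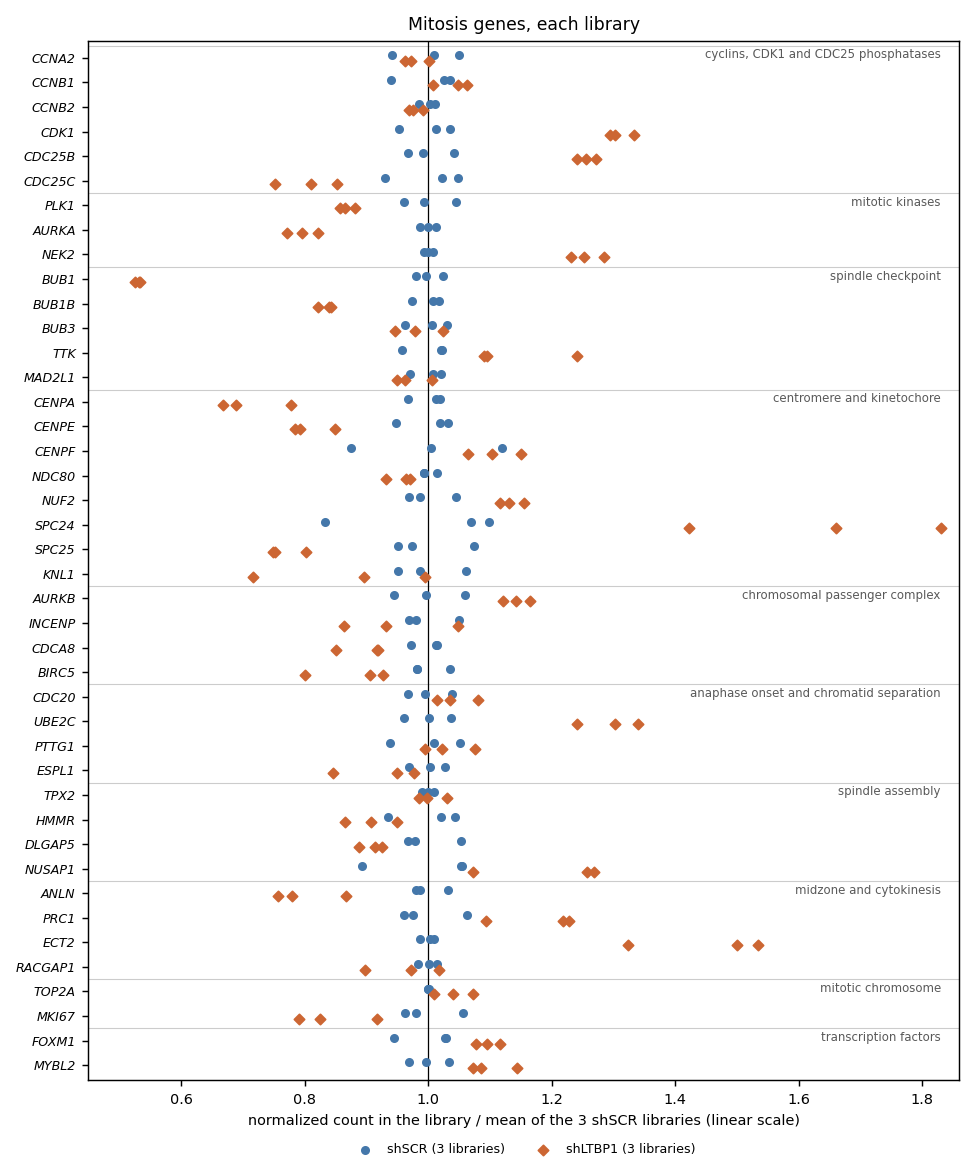
Normalized count of each of the 42 mitosis genes in each library, divided by the mean of the 3 shSCR libraries (circles, shSCR; diamonds, shLTBP1; linear axis), grouped by role. The shLTBP1 diamonds of BUB1 lie farthest to the left (mean 47.0% lower), and those of SPC24 and ECT2 farthest to the right (means 63.8% and 45.3% higher).

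Among the cyclins, CDK1 and its activating phosphatases, CDK1 and CDC25B rose and CDC25C fell, while the cyclins did not pass. CDK1, the kinase that drives entry into mitosis (ENSG00000170312, hg38 chromosome 10 from 60778331 to 60794852, plus strand), stood at 3746, 3833 and 3524 in shSCR and at 4791, 4820 and 4932 in shLTBP1. Every shLTBP1 value lay above every shSCR value. The mean was 31.0% higher (log2 fold change 0.39, standard error 0.05, limma adjusted p = 8.99e-05). CDC25B, which removes the inhibitory phosphates from CDK1, stood at 7500, 7689 and 8085 in shSCR and at 9630, 9744 and 9863 in shLTBP1. The groups did not overlap, and the difference was 25.6% (log2 fold change 0.33, limma adjusted p = 0.000147). Its relative CDC25C, which acts on the same kinase, went the other way, from 610 ± 38.2 to 491 ± 30.8 (SD, n = 3 each), a difference of -19.5% (limma adjusted p = 0.00951). The S and G2 phase cyclin CCNA2 stood at 3788 ± 207 and 3707 ± 74.3 and overlapped between groups. CCNB1 and CCNB2, the mitotic cyclins that bind CDK1, had log2 fold changes of 0.06 (95% interval -0.05 to 0.17) and -0.03 (-0.13 to 0.06).

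Each of the mitotic kinases PLK1, AURKA and NEK2 changed. AURKA, which matures centrosomes and is activated by TPX2, stood at 3639, 3589 and 3684 in shSCR and at 2895, 2986 and 2809 in shLTBP1. All shLTBP1 values were lower, by 20.4% on average (log2 fold change -0.33, standard error 0.05, limma adjusted p = 0.000222). PLK1, which acts from mitotic entry to cytokinesis, had means of 6329 ± 269 in shSCR and 5497 ± 76.4 in shLTBP1 and fell by 13.1% (limma adjusted p = 0.00433; SD, n = 3 each). NEK2, a kinase that separates centrosomes, rose from 1610 ± 12.3 to 2022 ± 43.2 (25.6%, limma adjusted p = 0.000338).

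In the spindle checkpoint, the kinase BUB1 had the largest difference of all 42 genes. BUB1 (ENSG00000169679, chromosome 2 from 110637698 to 110678114, minus strand), which recruits other checkpoint proteins to kinetochores, stood at 5262, 5036 and 5121 in shSCR and at 2737, 2743 and 2698 in shLTBP1. The shLTBP1 libraries were close to each other and far below every shSCR library, with a mean 47.0% lower (log2 fold change -0.91, standard error 0.04, limma adjusted p = 2.03e-07). Relative to the median of the 25 tested genes on each side of it it was at -0.18 (adjusted p = 0.011). BUB1B, which encodes BubR1, a part of the complex that inhibits CDC20, stood at 4717, 4670 and 4509 in shSCR and at 3905, 3804 and 3891 in shLTBP1. Its groups were apart too, with a smaller difference of -16.5% (limma adjusted p = 0.000693). The other parts of that inhibitory complex did not pass: the log2 fold change was -0.03 for BUB3 (95% interval -0.14 to 0.09), -0.04 for MAD2L1 (-0.15 to 0.07) and 0.06 for CDC20 (-0.05 to 0.17). After removal of trends with GC content and length, BUB3 was at 0.14 (limma adjusted p = 0.0468). TTK, the kinase that starts checkpoint signalling, rose from 1609 ± 59.9 to 1838 ± 138 (limma adjusted p = 0.0329), but not without any 1 of the shSCR libraries or shLTBP1 replicate 3 (log2 fold change 0.13 to 0.21, adjusted p = 0.0573 to 0.118).

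The 8 centromere and kinetochore genes split, with 2 that rose, 3 that fell and 3 that did not pass. The NDC80 complex, the main microtubule coupler of the kinetochore, has 4 subunits in this list, and their RNAs did not share a direction. SPC24 (ENSG00000161888, chromosome 19 from 11131520 to 11155808, minus strand) stood at 774, 753 and 587 in shSCR and at 1003, 1290 and 1171 in shLTBP1. The lowest shLTBP1 library lay above the highest shSCR library, and the mean was 63.8% higher (log2 fold change 0.71, standard error 0.12, limma adjusted p = 0.000789). SPC25, its direct partner (ENSG00000152253, chromosome 2 from 168834132 to 168913371, minus strand), stood at 863, 974 and 882 in shSCR and at 679, 727 and 682 in shLTBP1. Here every shLTBP1 value was lower (log2 fold change -0.38, limma adjusted p = 0.00146), though relative to its chromosomal neighbours SPC25 was at 0.17 (adjusted p = 0.121). NUF2 rose from 651 ± 25.7 to 738 ± 12.4 (limma adjusted p = 0.0399; SD, n = 3 each), a call lost without shSCR replicate 1 or 3 or shLTBP1 replicate 1 or 3 (log2 fold change 0.16 to 0.18, adjusted p = 0.0845 to 0.123). NDC80 itself stood at 1550 ± 18.6 and 1482 ± 32.3; its groups did not overlap, yet it did not pass (limma adjusted p = 0.305).

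CENPA, the histone H3 variant that marks centromeres (ENSG00000115163, chromosome 2 from 26764289 to 26801067, plus strand), stood at 1436, 1446 and 1371 in shSCR and at 947, 1104 and 976 in shLTBP1. No library of one group reached into the other, and the mean was 28.8% lower (log2 fold change -0.49, limma adjusted p = 0.000245), while relative to its neighbours CENPA was at 0.14 (adjusted p = 0.127). CENPE, a kinesin that moves chromosomes to the spindle equator, had means of 3357 ± 152 in shSCR and 2714 ± 119 in shLTBP1 and fell by 19.2% (log2 fold change -0.31, limma adjusted p = 0.00106). After removal of trends with GC content and length, it was at -0.08 (adjusted p = 0.198). CENPF, a large coiled-coil protein of the outer kinetochore, stood at 5542, 6175 and 4830 in shSCR, and overlapped with shLTBP1 at 6082, 6347 and 5876 (limma adjusted p = 0.135). Without shSCR replicate 2 its log2 fold change was 0.24 instead of 0.15 (limma adjusted p = 0.0222), and it was 0.36 after removal of trends with GC content and length (adjusted p = 0.0094). KNL1, the scaffold on which BUB proteins gather, stood at 2990, 3217 and 2881 in shSCR and at 2713, 2173 and 3015 in shLTBP1, with shLTBP1 replicate 3 inside the shSCR range (log2 fold change -0.21, limma adjusted p = 0.112). Without that library it was at -0.32 (adjusted p = 0.0211).

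The chromosomal passenger complex corrects faulty attachments and later acts at the midzone. Its kinase AURKB rose from 1347 ± 78.5 to 1540 ± 30.2 (SD, n = 3 each; log2 fold change 0.19, limma adjusted p = 0.0208). The call was lost without shSCR replicate 2 (0.15, adjusted p = 0.0855) or shSCR replicate 3 (0.19, adjusted p = 0.0582), and after removal of trends with GC content and length (0.09, adjusted p = 0.197). CDCA8, which encodes borealin, fell by 10.5% (limma adjusted p = 0.032), and BIRC5, which encodes survivin, by 12.2% (limma adjusted p = 0.0294). Neither call was firm. CDCA8 lost it without shSCR replicate 1 or 3 or shLTBP1 replicate 1 (log2 fold change -0.15 to -0.12, adjusted p = 0.0946 to 0.118), and BIRC5 without any 1 of the shSCR libraries or shLTBP1 replicate 3 (-0.20 to -0.13, adjusted p = 0.0572 to 0.1005). The scaffold INCENP stood at 4164 ± 184 and 3948 ± 389 and did not pass. It was at -0.20 (adjusted p = 0.0376) with its neighbours' median subtracted and at -0.17 (adjusted p = 0.0462) after removal of those trends.

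Of the genes for anaphase onset, UBE2C rose and 3 did not pass. UBE2C (ENSG00000175063, chromosome 20 from 45812576 to 45816957, plus strand), the ubiquitin-conjugating enzyme of the anaphase-promoting complex, stood at 2984, 3114 and 3224 in shSCR and at 4047, 4161 and 3857 in shLTBP1. The groups were well separated, with a mean 29.4% higher (log2 fold change 0.37, standard error 0.05, limma adjusted p = 0.000196). CDC20 stood at 3960 ± 141 and 4133 ± 134. PTTG1 (securin), which inhibits separase, stood at 1871 ± 108 and 1929 ± 77.0, and ESPL1, separase itself, at 1920 ± 56.3 and 1775 ± 132. With its neighbours' median subtracted ESPL1 was at -0.22 (adjusted p = 0.0249). PTTG2, a copy of PTTG1, had values of 0 to 1.92.

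Genes of the spindle and of the midzone held both rises and falls. ECT2, the exchange factor that activates RhoA for cytokinesis (ENSG00000114346, chromosome 3 from 172750682 to 172821474, plus strand), stood at 5055, 4941 and 5024 in shSCR and at 7513, 6628 and 7678 in shLTBP1. Every shLTBP1 library was higher, by 45.3% on average (log2 fold change 0.54, standard error 0.06, limma adjusted p = 4.07e-05), or by 0.17 on the log2 scale relative to its neighbours. RACGAP1, which binds ECT2 at the midzone, stood at 4874 ± 75.8 and 4690 ± 296 (SD, n = 3 each; log2 fold change -0.06, 95% interval -0.18 to 0.06). ANLN, a scaffold of the contractile ring, stood at 9076, 8615 and 8683 in shSCR and at 6849, 6658 and 7626 in shLTBP1, and fell by 19.9% (limma adjusted p = 0.000935). PRC1, which crosslinks midzone microtubules, rose from 6642 ± 368 to 7838 ± 499 (limma adjusted p = 0.00747). An overlapping protein-coding gene model of GENCODE 29 covers 57.6% of its exon bases and had a row of its own, at 577 ± 28.9 in shSCR, so how reads were divided is uncertain.

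NUSAP1, a microtubule bundler, was called higher, from 5707 ± 529 to 6845 ± 625 (limma adjusted p = 0.0219). The call was lost without shSCR replicate 1 or shLTBP1 replicate 1 or 3 (log2 fold change 0.18 to 0.23, adjusted p = 0.0704 to 0.0833), and an overlapping gene model covers 62.2% of its exon bases. DLGAP5, which stabilizes spindle fibres, fell by 9.1% (limma adjusted p = 0.0459), and lost that call with any 1 of the 6 libraries left out (log2 fold change -0.16 to -0.10, adjusted p = 0.0576 to 0.179). TPX2, the activator of AURKA, stood at 10164 ± 104 and 10210 ± 238, with a 95% interval of -0.08 to 0.09 for its log2 fold change. HMMR, a spindle and hyaluronan receptor protein, stood at 1428 ± 81.9 and 1296 ± 60.5 and did not pass (limma adjusted p = 0.0959).

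The widely used proliferation markers TOP2A and MKI67 did not share a call. TOP2A, the topoisomerase that untangles chromosomes, stood at 14934, 14945 and 14960 in shSCR and at 15556, 15099 and 16042 in shLTBP1. All shLTBP1 values were higher, but by only 4.1%, and it did not pass (limma adjusted p = 0.245). MKI67, which encodes the chromosome coat protein Ki-67, stood at 10343, 10156 and 11143 in shSCR and at 9675, 8346 and 8706 in shLTBP1. It fell by 15.5% (log2 fold change -0.25, limma adjusted p = 0.00755). After removal of trends with GC content and length, MKI67 was at 0.00 (adjusted p = 0.99) and TOP2A at 0.18 (adjusted p = 0.00141).

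The transcription factors of this gene programme were slightly higher. FOXM1 stood at 3698, 3399 and 3702 in shSCR and at 4016, 3880 and 3941 in shLTBP1, and MYBL2 at 6007, 6415 and 6183 and at 6733, 7096 and 6651. In both genes the lowest shLTBP1 value was above the highest shSCR value, with differences of 9.6% (limma adjusted p = 0.046) and 10.1% (limma adjusted p = 0.0297). FOXM1 was at 0.07 after removal of trends with GC content and length (adjusted p = 0.183) and lost its call without any 1 of the shSCR libraries or shLTBP1 replicates 1 or 3 (log2 fold change 0.09 to 0.15, adjusted p = 0.0604 to 0.181). MYBL2 lost it without shSCR replicate 1 or 3 or shLTBP1 replicate 1 or 2 (log2 fold change 0.11 to 0.15, adjusted p = 0.0551 to 0.117), and was at -0.01 after removal of trends with GC content and length.
Genes with a CHR match in the promoter moved either way. Of the 17 members with a CHR match 3 rose and 8 fell, beside 26.3% and 26.8% of all tested genes. Of the 16 members with a promoter entry but no CHR match, 7 rose and 3 fell. The median log2 fold change was -0.14 with a match and 0.10 without. Among the 8 falls with a CHR match, CENPA and SPC25 lie on chromosome 2 and had log2 fold changes of 0.14 and 0.17 relative to their neighbours. CDCA8, DLGAP5 and ANLN lost their call in that setting, while PLK1, BUB1B and MKI67 kept it. INCENP, ESPL1 and TOP2A, which also have a CHR match and had not passed, were called lower in that setting, at -0.20, -0.22 and -0.18. The 3 rises with a match (CDK1, PRC1 and ECT2) kept their call. Among the members without a match, CCNB1 and CENPF were then called higher, NUSAP1 lost its call and the other calls stayed. After removal of trends with GC content and length instead, MKI67 was at 0.00, TOP2A was called higher at 0.18 and INCENP was called lower at -0.17. These are few genes, and no test was made. Only the given letters in the 250 bases before the start site were searched, so genes without a match may hold the element elsewhere. The windows also differ: exons of protein-coding genes in GENCODE 29 cover all 250 bases in PLK1, HMMR and PRC1, and 0 in CDK1 and CDC25C.

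Per length of the longest coding transcript, the genes differed widely in level in shSCR. UBE2C was highest, at 3400 ± 132 normalized counts per kilobase (SD, n = 3), followed by CCNB1 at 3119 ± 163, PLK1 at 2842 ± 121, TPX2 at 2819 ± 28.8 and TOP2A at 2596 ± 2.29. Adjacent genes in this order from UBE2C to TPX2 overlap within 1 SD, so the ranks of adjacent genes are not distinguished. UBE2C does not overlap with PLK1 or TPX2 in this way. The lowest were CDC25C at 287 ± 17.9, ESPL1 at 290 ± 8.5 and SPC24 at 305 ± 44.5 per kilobase, which also overlap in their spread. Within the NDC80 complex the level per kilobase in shSCR was 714 ± 8.57 for NDC80, 669.5 ± 43.9 for SPC25, 330.5 ± 13.1 for NUF2 and 305 ± 44.5 for SPC24. NDC80 and SPC25 overlap within 1 SD, as do NUF2 and SPC24, so the order within each pair is not distinguished. In shLTBP1 SPC24 stood at 499 ± 62.4 per kilobase and UBE2C at 4400 ± 168. A gene whose main transcript is shorter than the longest has its level understated.

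**Figure D2:**
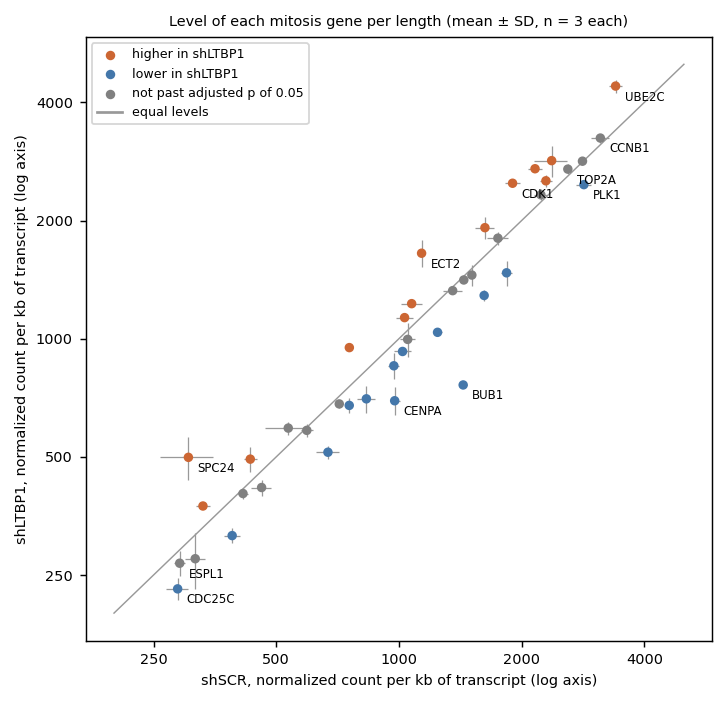
Mean normalized count per kilobase of the longest coding transcript in shSCR (horizontal) and shLTBP1 (vertical), both on log axes, with SD bars (n = 3 each) for the 42 genes. Points run along the line of equal levels; BUB1 lies farthest below it, and SPC24 and ECT2 farthest above it.

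Chromosomal position moved with several of these values. The members BUB1, CENPA and SPC25 are the 3 that lie on chromosome 2, where LTBP1 lies too, and all 3 fell. On that chromosome 76.6% of 852 tested genes were called lower, with a median log2 fold change of -0.56. The 25 tested neighbours on each side had a median log2 fold change of -0.73 around BUB1, -0.63 around CENPA and -0.55 around SPC25. With the neighbours' median subtracted from each library, BUB1 was at -0.18 (limma adjusted p = 0.011), CENPA at 0.14 (adjusted p = 0.127) and SPC25 at 0.17 (adjusted p = 0.121). ECT2 lies among neighbours that were higher (median 0.36), and was at 0.17 after subtraction (adjusted p = 0.0188). The neighbours of ANLN were lower (-0.19), and it was at -0.14 (adjusted p = 0.0872). TOP2A lies among neighbours with a median of 0.24 and was at -0.18 (adjusted p = 0.00595), the opposite sign of its own log2 fold change.

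For CDK1, CDC25B, UBE2C, AURKA, PLK1, BUB1B and SPC24 the neighbours' median lay between 0.00 and 0.13, and subtraction left log2 fold changes of 0.35, 0.28, 0.36, -0.36, -0.26, -0.26 and 0.58. Calls also turned on it for CCNB1, at 0.21 (adjusted p = 0.0197), CENPF, at 0.22 (0.0444), CDCA8, at -0.11 (0.118), DLGAP5, at -0.06 (0.316), and NUSAP1, at 0.24 (0.0604). In this setting 14 members were higher and 11 lower, beside 48.8% of all placed genes called in either direction. Across the 42 genes, the members' log2 fold change and their neighbours' median had a Pearson r of 0.618, and 0.31 over the 39 genes off chromosome 2. These genes share libraries and are not independent. What lies behind the chromosome-wide differences was not tested.

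**Figure D3:**
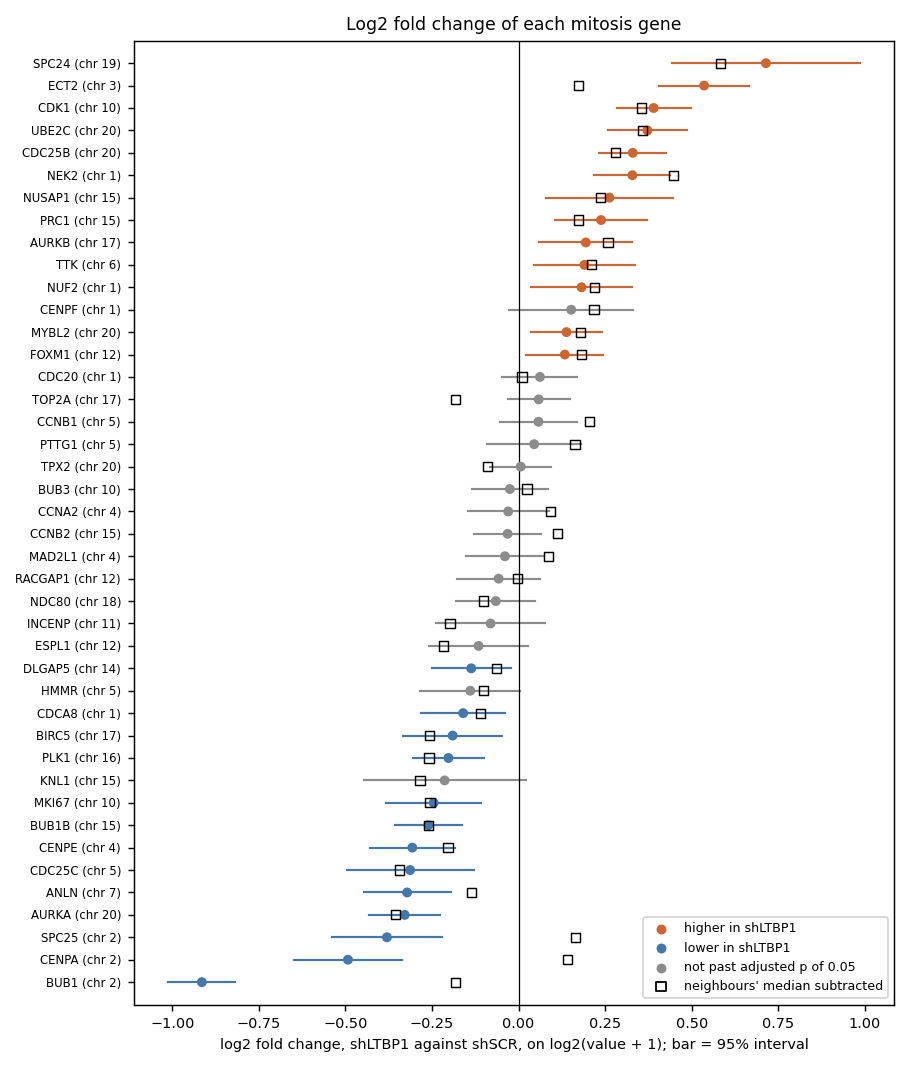
Log2 fold change of shLTBP1 against shSCR for each of the 42 genes with its 95% interval (filled circles and bars; n = 3 libraries each), and with the median of 25 tested neighbours on each side subtracted (open squares). The squares of BUB1, CENPA and SPC25, all on chromosome 2, and of ECT2 and TOP2A lie far from their circles, while those of CDK1, UBE2C, BUB1B and AURKA lie close to theirs.

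Beyond the 42 genes, 140 further mitosis genes were all tested, and 51 were higher and 27 lower; their log2 fold changes had a median of 0.06. Called genes were 55.7% of them, against 53.1% of all tested genes (26.3% higher and 26.8% lower). Of these 140, the 6 on chromosome 2 all fell. With the neighbours' median subtracted, the counts were 38 higher and 17 lower. In that setting 3074 of all 12757 placed genes were called higher and 3157 lower, 48.8% in either direction. The counts by list were 5 and 2 for the anaphase-promoting complex, 11 and 1 for centromere and kinetochore and 5 and 1 for condensin and cohesin. The other lists had 5 and 5 for entry and exit, 4 and 4 for spindle and cytokinesis and 8 and 4 for MuvB and E2F. The counts without subtraction are given for each list below. In every list the genes named are those that rose and fell most among the called ones.

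Of 20 genes of the anaphase-promoting complex and its regulators, 8 rose and 5 fell. Called genes were 65.0% of this list, against 53.1% of all tested genes. The subunits ANAPC4 and ANAPC10 rose, with log2 fold changes of 0.34 and 0.32 (limma adjusted p = 0.00644 and 0.0379). ANAPC10 lost its call without shSCR replicate 2 or 3 or shLTBP1 replicate 1 or 2 (0.23 to 0.32, adjusted p = 0.0801 to 0.121). TRIP13, the ATPase that recycles the checkpoint protein MAD2, fell from 1588 ± 5.84 to 746 ± 68.2 (SD, n = 3 each; log2 fold change -1.09), and ANAPC1, the scaffold subunit on chromosome 2, from 5879 ± 186 to 3373 ± 160 (-0.80). Both lie among lower genes and were at -0.14 and -0.03 after subtraction of the neighbours' median. The 8 rises were 4 without shSCR replicate 3 and 5 without shSCR replicate 2 or shLTBP1 replicate 2, and the 5 falls were 3 without shSCR replicate 1 or 3 or shLTBP1 replicate 1 or 3.

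Among 31 other centromere and kinetochore genes, 11 rose and 8 fell, so 61.3% were called, against 53.1% of all tested genes. CENPP and CENPQ, of the constitutive centromere network, rose by 1.07 and 0.45 on the log2 scale (limma adjusted p = 0.000121 and 0.000794). CENPP lies among neighbours that were higher (median 0.54). After subtraction of the neighbours' median, CENPP was at 0.53 and CENPQ at 0.57. CENPO and SGO2, a protector of centromeric cohesion, fell, with -0.72 and -0.70. Those 2 genes lie on chromosome 2 and were at -0.17 and -0.02 after subtraction. The rises were 7 without shSCR replicate 1, and the falls were 5 without shSCR replicate 2 or shLTBP1 replicate 1.

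Of 20 cohesin and condensin genes, 8 were called higher and 1 lower, which is 45.0% of the list against 53.1% of all tested genes, and with the neighbours' median subtracted 5 were higher and 1 lower. RAD21, the cohesin subunit that separase cuts, rose from 18406 ± 83.7 to 31055 ± 1739 (SD, n = 3 each; log2 fold change 0.75, limma adjusted p = 1.07e-06), and the cohesin ATPase SMC3 from 4539 ± 92.9 to 6572 ± 151 (0.53). Both stayed past the threshold in every alternative run. The condensin subunit NCAPH, on chromosome 2, was the fall, with -0.51, or -0.01 after subtraction. Without shLTBP1 replicate 3 there were 2 falls. The gene called lower after subtraction was not NCAPH but another condensin subunit, which had not passed without subtraction.

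Of 19 genes that control mitotic entry and exit, 8 rose and 4 fell (2 falls without shSCR replicate 2). That is 63.2% called, against 53.1% of all tested genes. CKS2, a CDK-binding protein, rose by 0.66 on the log2 scale, among neighbours that were higher too (0.13 after subtraction, limma adjusted p = 0.132), and PKMYT1, a kinase that inhibits CDK1, rose by 0.47. NEK6 and CDCA2 fell, with -0.37 and -0.33. Of 28 spindle motor, spindle and cytokinesis genes, 7 were higher and 6 lower (median log2 fold change 0.01). Here 46.4% were called, against the same 53.1%. TROAP and KIFC1, a minus-end directed kinesin, rose by 0.33 and 0.29, while the kinesin KIF14 and FAM83D fell, with -0.56 and -0.42. TROAP lost its call after removal of trends with GC content and length (0.20, limma adjusted p = 0.0614).

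Of 22 genes of the MuvB core, pocket proteins, E2F and NF-Y, the regulators upstream of the mitotic programme, 9 rose and 3 fell (5 falls without shLTBP1 replicate 3). Called genes were 54.55% of them, against 53.1% of all tested genes. E2F7 and E2F2 rose by 0.59 and 0.49 on the log2 scale (limma adjusted p = 0.0132 and 0.000121). E2F5, an E2F that works with pocket proteins as a repressor, fell from 427 ± 57.0 to 109 ± 4.58 (SD, n = 3 each; log2 fold change -1.96, adjusted p = 8.69e-07 by limma), which was the largest difference among the 140 genes. The repressor E2F6, on chromosome 2, fell with -0.76, or -0.27 after subtraction.

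**Figure D4:**
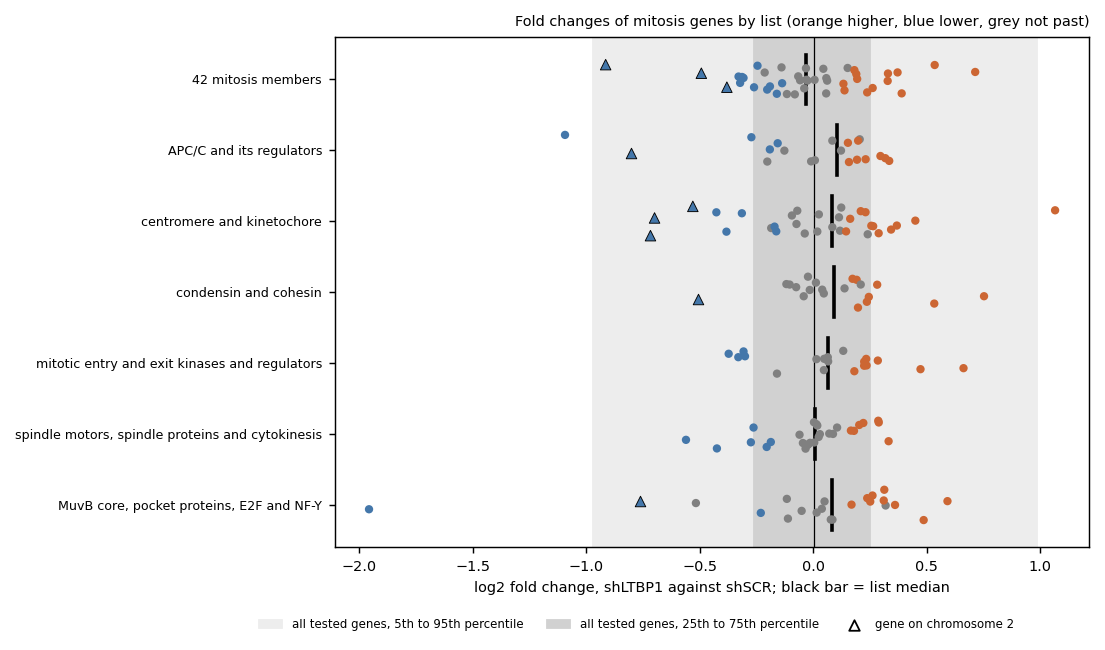
Log2 fold change of every gene in the list of 42 and in 6 lists of other mitosis genes (points coloured by call, spread vertically at random; triangles, genes on chromosome 2; black bars, list medians), over the range of all tested genes. The light band spans the 5th to 95th percentile of tested genes (-0.97 to 0.99) and the dark band the 25th to 75th (-0.26 to 0.25); all 42 members lie inside the light band, while E2F5 and TRIP13 lie to its left and CENPP to its right.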

How the data were processed

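Total RNA of 6 MKN28 libraries was sequenced after directional library preparation. The tools were STAR 2.7.3a, RSEM 1.3.1, FastQC 0.10.1 and DESeq2 on build hg38, per the submitters' processing notes. The sources used here do not state the annotation or the strand setting, so overlapping and antisense genes remain uncertain. The deposited signal is a value per gene after the authors' normalization with DESeq2, as the table's name states. Low values were whole multiples of 1 read (within 0.1 of a step) in only 35.0% to 36.9% of cases, so no count test was run.

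Genes with a mean of at least 10 were fitted on log2(value + 1) with limma 3.58.1 in R 4.3.3 (group as the only term, 4 residual and 5.6 prior degrees of freedom, mean-dependent trend), and p-values were 2-sided and adjusted by Benjamini-Hochberg over all 12789 tested genes at 0.05. The script was tested on simulated data. The 19 alternatives changed the pseudocount, filter, scaling, moderation, block, trends, neighbours, chromosome 2 genes or the libraries used. GENCODE 29 gave positions, GC content and transcript lengths (19872 of 19960 identifiers matched). The neighbours' median is that of 25 tested genes on each side, per library.

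Members and lists were chosen with earlier results of these data known. Named beside LTBP1, every member and the epithelial markers are called genes from each list of other genes. These are up to 2 that rose most and 2 that fell most. PTTG2, COL1A1, PTPRC, LUM and HBB were picked after their values were seen.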

Additional observations from a re-analysis of the deposited data

How the results depend on the processing

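Pseudocounts of 0.5 and 5, a minimum mean of 50, TMM scaling and robust moderation left 13 members higher and 13 lower. Without a low-value filter there were 12 and 13, with upper quartile scaling or quantile normalization 13 and 10, without the trend in variance 9 and 11, with chromosome 2 genes left out 13 and 10, and after removal of GC and length trends 13 and 12. With the replicate number as a block the counts were 12 and 11 for the members, 51 and 26 for the other mitosis genes. All tested genes called higher were then 3347 and all tested genes called lower 3408. Same-numbered libraries correlated at -0.009, 0.058 and -0.001 in their deviations, so no pairing by number was seen. Whether same-numbered libraries were prepared together is not known from the labels. NUF2 (adjusted p = 0.0708), CDCA8 (0.0513), DLGAP5 (0.0712) and FOXM1 (0.0519) were not called with the block, and CENPF was (0.0475). With 1 library left out, members called higher ranged from 8 to 12 and called lower from 10 to 12; other mitosis genes from 40 to 48 and from 21 to 26, with medians of 0.055 to 0.077. The members' median of -0.03 was 0.011 with upper quartile scaling, 0.017 with quantile normalization, 0.056 with the neighbours' median subtracted and -0.0053 with GC and length trends removed. The other genes' median of 0.06 was 0.10, 0.079 and 0.078 with upper quartile scaling, quantile normalization and GC and length trends removed, and their 27 falls were 17 with the neighbours' median subtracted. Signs turned for CENPA (0.14), SPC25 (0.17) and TOP2A (-0.18) with the neighbours' median subtracted, and for BUB3 (0.14) and MYBL2 (-0.0098) with GC and length trends removed; the cause was not tested. Depth is unknown, so no counting interval can be given.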
